A study of Homo sapiens with 6 samples.

Results

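The results concern 10 weakly expressed genes best known from other tissues: LHFPL3-AS1, TAT, MGAM, MGAM2, TNR, WFIKKN2, TMEM119, NPR3, COL20A1 and CFAP43. They were picked out of the 64299 genes of the count table because, among genes with few reads, they had some of the largest differences of ERbeta over the control: they were chosen by their counts in these same 6 libraries. Every comparison of ERbeta with the control for these 10 genes is therefore a description, with no test, and supports nothing by itself. All 10 were found in the table by their Ensembl identifiers.

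The study sequenced poly(A) RNA in 6 libraries of HEK293T cells, an established line that descends from embryonic kidney and takes up plasmids readily. In 3 libraries (ERbeta 1, 2 and 3) the cells carried a plasmid labelled ERbeta, and in 3 (EV_Ctrl 1, 2 and 3) an empty vector; all 6 received a total of 1 µg of plasmid with the reagent FuGene 6. The series text speaks of HEK293 and writes the insert as ER-β, which the labels do not define. It is read here, from general knowledge of the field, as a designed β-sheet protein routed into the endoplasmic reticulum and not as estrogen receptor beta. Both groups were transfected in the same way, and the promoter of the plasmid is not given in the sources used here. Whether the replicates were grown separately is not said in the labels, and a p-value here covers only differences among these libraries, which may be technical.

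The 10 genes belong to different cell types and share no pathway. TAT is a liver enzyme, MGAM and MGAM2 belong to the brush border of the gut, TNR and TMEM119 are best known from brain, NPR3 from blood vessels and kidney, and CFAP43 from motile cilia and sperm tails. Genes of this kind are usually kept silent outside their own tissue by closed chromatin and by the lack of their activating factors. A transformed line can still give a few transcripts from them, and in such genes a small number of reads decides the value.

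The libraries held between 6833442 reads (EV_Ctrl 1) and 27101644 reads (EV_Ctrl 2), the 3 of ERbeta between 13149304 and 16531368. Levels are given as CPM (counts of a gene per 1e6 counts of the library) after TMM scaling, which evens out differences in composition between libraries. A single read was worth between 0.0618 and 0.0802 CPM in the ERbeta libraries, 0.139 CPM in EV_Ctrl 1, 0.0377 CPM in EV_Ctrl 2 and 0.0871 CPM in EV_Ctrl 3. Over all 16243 genes tested, edgeR's quasi-likelihood test called 0 genes at an adjusted p of 0.05, while 2018 had an unadjusted p under 0.05 and DESeq2 called 71. EV_Ctrl 2 stood apart from the other controls: without it the same edgeR test called 2324 of 16259 genes, or 14.3%. The 8 embryonic kidney and neuronal genes listed for the line summed to 272 to 302 CPM in ERbeta and 291 to 311 CPM in the controls. The largest, the neurofilament gene NEFL, stood at 142 ± 15.7 CPM in the ERbeta libraries and 147 ± 5.13 CPM in the controls (SD, n = 3 each). PAX8 had 6 reads in all, and PAX2 was at 6.42 ± 2.22 and 9.68 ± 2.37 CPM with overlapping groups. EYA1 was higher in ERbeta without overlap, and LHX1 and NEFM were lower, beside 10.2% higher and 8.48% lower among all genes tested. The 5 markers of mature kidney summed to 0.241 to 0.432 CPM in ERbeta and 0.416 to 0.958 CPM in the controls. Over the 6 libraries they had 38 reads for NPHS1, 8 for SLC12A1, 1 for UMOD, 1 for AQP2 and 0 for SLC34A1.

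Regulatory sequence was available for 6 of the 10 genes, as the 250 bases before the annotated start in RefSeq (GRCh38.p14). The 3 promoters shown are those of LHFPL3-AS1, with the largest difference, of CFAP43, with the most reads, and of MGAM2, which is first in the authors' deposited table. They run 5′ to 3′ on the gene's strand, and capitals mark CCAAT or its reverse complement ATTGG, and TTTATA, the reverse complement of TATAAA.
LHFPL3-AS1, chr7:104804093-104804342, minus strand: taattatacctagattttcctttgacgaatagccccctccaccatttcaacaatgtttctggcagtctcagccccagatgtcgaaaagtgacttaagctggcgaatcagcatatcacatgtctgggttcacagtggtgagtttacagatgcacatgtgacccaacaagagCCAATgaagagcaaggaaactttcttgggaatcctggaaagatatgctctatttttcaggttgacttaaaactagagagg
MGAM2, chr7:142111468-142111717, plus strand: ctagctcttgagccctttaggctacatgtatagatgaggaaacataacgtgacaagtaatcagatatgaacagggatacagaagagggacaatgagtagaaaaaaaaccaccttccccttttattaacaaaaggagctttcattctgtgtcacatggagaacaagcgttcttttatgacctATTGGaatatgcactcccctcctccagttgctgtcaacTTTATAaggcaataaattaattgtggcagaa
CFAP43, chr10:104232365-104232614, minus strand: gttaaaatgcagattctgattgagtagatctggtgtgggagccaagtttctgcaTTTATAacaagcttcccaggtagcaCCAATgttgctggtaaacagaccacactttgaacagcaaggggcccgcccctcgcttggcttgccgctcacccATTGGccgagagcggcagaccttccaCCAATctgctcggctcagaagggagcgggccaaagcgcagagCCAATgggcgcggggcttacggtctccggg
The LHFPL3-AS1 promoter lies inside the span of LHFPL3 on the other strand, the MGAM2 promoter in the gap between MGAM and MGAM2, and the CFAP43 promoter in the gap before GSTO1. The promoters of MGAM2 and LHFPL3-AS1 had 39.2% and 42.8% G and C, against a median of 58% over all 35116 promoters of the table, and that of CFAP43 had 56.8%.

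Motifs known from stress responses of the endoplasmic reticulum were searched on both strands of the 8 promoters that these 6 genes have in the table (NPR3 and WFIKKN2 have 2 each). The letters of the ER stress element (ERSE, which is CCAAT and CCACG with 9 bases of any kind between them), of ERSE-II (ATTGG and CCACG with 1 base between them), of the core of the unfolded protein response element (TGACGTG) and of the amino acid response element (TGATGNAA) were found in 0 of them. Among all promoters the shares were 0.0740% for ERSE, 0.0513% for ERSE-II, 1.68% for TGACGTG and 3.14% for TGATGNAA. The AP-1 letters TGANTCA (6.57% of all promoters) and the cyclic AMP response element TGACGTCA (1.65%) were also found in 0. CCAAT alone was present for 4 genes, CFAP43, LHFPL3-AS1, MGAM2 and NPR3, and in 32.0% of all promoters; CFAP43 held 4 copies. The other end of the ERSE, CCACG, was present for MGAM, NPR3 and WFIKKN2 and in 33.5% of all promoters, and TATAAA for CFAP43 and MGAM2 and in 10.7%. CCAAT and CCACG are both parts of the ERSE letters, and a match is a description of the letters only.

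The metabolic enzymes come first. TAT (tyrosine aminotransferase, ENSG00000198650.8, chr16:71565660-71577130, minus strand) starts the breakdown of tyrosine in liver. ERbeta 1, 2 and 3 held 32, 24 and 23 of its reads, EV_Ctrl 1, 2 and 3 held 2, 6 and 4; reads are given in this order of libraries throughout. All 3 ERbeta libraries were above all controls, also EV_Ctrl 2 with its larger depth. This came to 1.79 ± 0.211 CPM against 0.284 ± 0.0613 CPM (SD, n = 3 each), a ratio of 6.32. The log2 fold change, which edgeR fits to the counts and draws slightly toward 0 where reads are few, was 2.70 ± 0.30 (SE).

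MGAM (maltase-glucoamylase, ENSG00000257335.6, chr7:141907813-142106747, plus strand) splits glucose off starch fragments at the gut surface, and MGAM2 (ENSG00000257743.6, chr7:142111749-142222324, plus strand) is its paralog 5002 bp further along the same strand. MGAM had 61, 52 and 42 reads in the ERbeta libraries and 9, 30 and 10 in the controls. Its 30 reads in EV_Ctrl 2 are 1.13 CPM, within the range of the other controls (1.25 CPM in EV_Ctrl 1 and 0.871 CPM in EV_Ctrl 3). Against these stood 3.77, 3.39 and 3.37 CPM in ERbeta, a log2 fold change of 1.70 ± 0.21. MGAM2 had 69, 43 and 40 reads in the ERbeta libraries and 1, 15 and 6 in the controls. Its ERbeta libraries differed among themselves, 4.26, 2.80 and 3.21 CPM, with ERbeta 1 highest. The control mean of MGAM2 was 0.409 ± 0.235 CPM, and the log2 fold change 2.83 ± 0.35. The paralogs shared no stretch of 50 bases: 0 of the 9123 windows of MGAM and 0 of the 7818 windows of MGAM2 occurred in the transcripts of another gene.

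Among the proteins of the extracellular space, TNR (tenascin R, ENSG00000116147.14, chr1:175315194-175743770, minus strand) is a matrix protein of the brain found in the nets around neurons. It was the weakest of the 10 per unit length, with 16, 11 and 13 reads in the ERbeta libraries and 0, 2 and 1 in the controls. ERbeta thus held 40 reads and the controls 3, and the ratio of pooled reads per library size was 13.7 with an exact binomial 95% interval from 4.36 to 69.2. Intervals of this kind cover counting error only. They leave out the choice of the genes by these same counts and the spread between libraries, and are no test. On the CPM scale TNR stood at 0.916 ± 0.175 against 0.0542 ± 0.0473 (SD, n = 3 each).

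WFIKKN2 (ENSG00000173714.7, chr17:50834650-50842348, plus strand) encodes a secreted protein that binds myostatin and GDF11. It had 28, 21 and 12 reads in the ERbeta libraries and 0, 4 and 1 in the controls. The groups did not overlap, but ERbeta 3 was low, with 0.963 CPM beside 1.73 and 1.37 CPM in ERbeta 1 and 2. Its log2 fold change was 3.56 ± 0.51, and 4.46 without EV_Ctrl 2, the control with 4 of its 5 control reads.

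COL20A1 (type XX collagen of the fibril-associated family, ENSG00000101203.14, chr20:63293186-63334851, plus strand) had 75, 64 and 34 reads in the ERbeta libraries and 10, 28 and 16 in the controls. Of the 10 genes it came closest to an overlap: its lowest ERbeta library, ERbeta 3 at 2.73 CPM, was 1.96 times its highest control at 1.39 CPM. The means were 3.84 ± 0.993 and 1.28 ± 0.193 CPM, a log2 fold change of 1.65 ± 0.27.

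Of the membrane proteins, TMEM119 (ENSG00000183160.8, chr12:108589846-108598320, minus strand) is used as a marker of microglia in brain and also acts in bone-forming cells. Its reads were 15, 14 and 11 in the ERbeta libraries and 1, 1 and 2 in the controls. The ERbeta libraries were almost the same on the CPM scale, 0.926, 0.912 and 0.883, while the controls rested on 4 reads in all. The log2 fold change of 3.22 ± 0.48 became 2.44 without EV_Ctrl 2 and 3.75 without EV_Ctrl 3.

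NPR3 (ENSG00000113389.13, chr5:32689070-32791724, plus strand) is the clearance receptor that takes natriuretic peptides out of circulation. It had 58, 43 and 36 reads in the ERbeta libraries and 2, 24 and 9 in the controls. EV_Ctrl 1 was the lowest control, at 0.277 CPM, beside 0.905 and 0.784 CPM in EV_Ctrl 2 and 3. The ERbeta libraries lay higher, at 3.58, 2.80 and 2.89 CPM, and the log2 fold change was 2.04 ± 0.31.

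CFAP43 (ENSG00000197748.10, chr10:104129888-104232362, minus strand), a protein of the axoneme, the microtubule core of motile cilia and sperm tails, had the most reads: 159, 134 and 121 in the ERbeta libraries and 19, 104 and 38 in the controls. By raw reads EV_Ctrl 2 is not far from ERbeta 3, but at its depth the 104 reads are 3.92 CPM, against 9.71 CPM in ERbeta 3. The means were 9.42 ± 0.600 and 3.29 ± 0.645 CPM (SD, n = 3 each). Its log2 fold change of 1.47 ± 0.17 was the smallest of the 10 and had the smallest standard error.

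LHFPL3-AS1 (ENSG00000226869.4, chr7:104738597-104804107, minus strand) is a long non-coding RNA within LHFPL3, a gene of a family of small tetraspan membrane proteins. It had 22, 20 and 18 reads in the ERbeta libraries and 0, 2 and 1 in the controls. On the CPM scale its lowest ERbeta library, at 1.30, stood beside 0.0871 in its highest control. The means were 1.37 ± 0.0712 and 0.0542 ± 0.0473 CPM, and the log2 fold change of 4.21 ± 0.43 was the largest of all 16243 genes tested. With 60 reads against 3, the pooled ratio was 20.6 with an exact binomial 95% interval from 6.70 to 102. The host gene LHFPL3 itself, on the other strand, had 1 read over the 6 libraries.

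**Figure D1:**
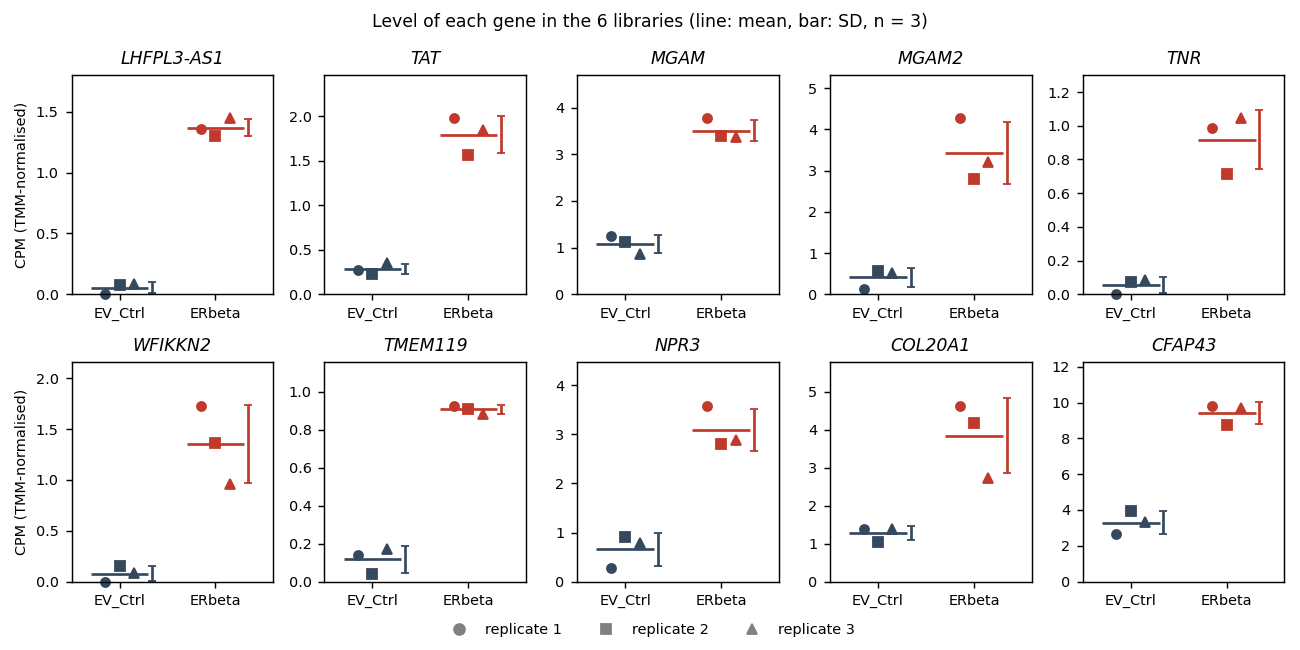
TMM-normalised CPM of each of the 10 genes (vertical axes, each from 0) in the 3 EV_Ctrl and the 3 ERbeta libraries (symbols by replicate number), with the mean as a line and the SD as a bar beside it. In every panel the 3 ERbeta libraries lie above the 3 controls, by the least in COL20A1 (lowest ERbeta library 1.96 times the highest control) and by the most in LHFPL3-AS1 (1.30 CPM above 0.0871 CPM).

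In 10 of the 10 genes the groups did not overlap, a contrast that the choice of genes had used; over all genes tested this was so in the same direction for 10.2%, and for 8.08% of the 2241 weak genes with a mean log2 CPM under 1. In the other direction it was so for 8.48% of all genes and for 0 of the 10, and 48.3% of all genes had a positive log2 fold change, as had all 10. The log2 fold changes ran from 1.47 to 4.21 with a median of 2.77, beside -0.01 over all genes tested. A log2 fold change above 1 was found for 1.48% of all genes tested and 3.08% of the weak ones. The 6 largest log2 fold changes of the table were LHFPL3-AS1, TNR, WFIKKN2, TMEM119, MGAM2 and TAT in this order, followed by MRC1, which is not one of the 10, at 2.60. CFAP43 was at place 33, and 23 other genes lay above it; directly outside it SLC6A12 had 1.46. The highest level among the 10, that of CFAP43, was at percentile 28.1 of the genes tested, and 5 of the 10 had a mean log2 CPM under 1.

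**Figure D2:**
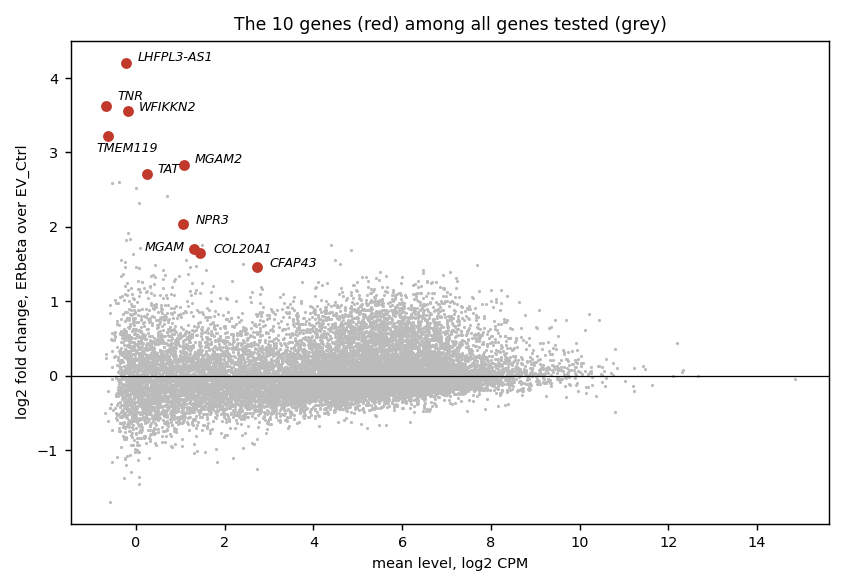
Mean level (log2 CPM, horizontal axis) and log2 fold change of ERbeta over EV_Ctrl (vertical axis) of the 16243 genes tested, 1 point a gene, with the 10 genes in red. The red points lie at the upper left edge of the cloud, between 1.47 (CFAP43) and 4.21 (LHFPL3-AS1).

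The filter on low counts bears on these values. A gene was tested when at least 3 libraries exceeded 0.690 CPM, and all 10 genes passed. For 6 of them (LHFPL3-AS1, TAT, MGAM2, TNR, WFIKKN2 and TMEM119) only the ERbeta libraries were above that level, so they would not have been tested had ERbeta been at the control level. NPR3 passed it in 2 control libraries, and MGAM, COL20A1 and CFAP43 in all 3. In bulk RNA, more cells that express a gene and more RNA per cell cannot be told apart.

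The chi-square per degree of freedom of the 3 ERbeta libraries, which is near 1 when counting is the only source of spread, was 3.42 for COL20A1 and 2.58 for MGAM2, smaller but above 1 for WFIKKN2, and under 1 for the other 7 genes. Its highest value in the controls was 1.46, for CFAP43. ERbeta 1 was the highest ERbeta library for 8 of the 10 genes. ERbeta 2 was the lowest ERbeta library for 6 genes (LHFPL3-AS1, TAT, MGAM2, TNR, NPR3 and CFAP43) and ERbeta 3 for 4 (MGAM, WFIKKN2, TMEM119 and COL20A1); the latter include the 3 genes richest in G and C (WFIKKN2 59.5%, TMEM119 59.1% and COL20A1 61.6%). EV_Ctrl 1, the shallowest library, was the lowest control for 6 genes and had 0 reads for 3 (LHFPL3-AS1, TNR and WFIKKN2). For a count of 0 the upper 95% limit of the expected count is about 3 reads, which would be 0.416 CPM there. EV_Ctrl 2 was the highest control for 4 genes, and from the mean of the other controls it lay at most 32.5% of the way to the ERbeta mean. Whether depth or base composition has a part in these differences was not tested; the values with a correction for G and C content and with equal depths stand in the closing section.

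Levels between genes are compared per kilobase of exon. In ERbeta CFAP43 was highest, at 1.31 ± 0.0836 CPM per kilobase, and overlapped no other gene. It was followed by LHFPL3-AS1 (0.450 ± 0.0234), MGAM2 (0.419 ± 0.0923), COL20A1 (0.350 ± 0.0905), WFIKKN2 (0.341 ± 0.0966), TAT (0.332 ± 0.0390), MGAM (0.326 ± 0.0209), NPR3 (0.313 ± 0.0434) and TMEM119 (0.284 ± 0.00701 CPM per kilobase). From LHFPL3-AS1 to TMEM119 the libraries of each gene overlapped those of the next, so that 8 of the 10 genes formed one run without a gap. TNR was lowest, at 0.0707 ± 0.0135 CPM per kilobase, and overlapped none. In EV_Ctrl CFAP43 was again highest (0.458 ± 0.0897 CPM per kilobase) and TNR lowest (0.00418 ± 0.00365), but LHFPL3-AS1 moved from the second place to the ninth, at 0.0178 ± 0.0156 CPM per kilobase. All neighbours below CFAP43 overlapped there.

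In the authors' deposited table, the log2 fold changes of the 10 genes were smaller, from 0.71 for TMEM119 to 1.46 for MGAM2. MGAM2 had the largest value among the 38565 genes with one in the authors' deposited table, whose values ran from -0.73 to 1.46. The largest value in the edgeR fit was 4.21, so the sizes of the values in these sets are not directly comparable. The reason for this was not tested. LHFPL3-AS1 and TAT had 1.11 each in the authors' deposited table, at places 6 and 5, and CFAP43 had 0.93 at place 12. The authors' deposited table gives an adjusted p for 0 of the 10 genes and for 11150 genes in all. The authors' deposited table does not rest on the counts of these 6 libraries alone, since 8079 of the 33813 genes with 0 reads in all 6 have a mean above 0 in it. The mean of the authors' deposited table for TNR was 15.3 where the 6 libraries give a mean normalised count of 7.21, and for CFAP43 85.2 where they give 94.5.

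Genes beside the 10 were not used in choosing them, and could be tested. Annotation (GENCODE 29, GRCh38) placed 40 other genes over them or next to them. Of these, 18 had 0 reads in all 6 libraries, 4 had 1 to 9, and 18 had 10 or more. edgeR's test covered 15 and called 0, with adjusted p-values from 0.397 to 0.965. The same test called 0 of all 16243 genes, so the 0 is nothing particular to the neighbours. Of the 15, 5 had an unadjusted p under 0.05, 12.4% being the share over all genes. The log2 fold changes of the 15 had a median of 0.14 and ran from -0.29 to 1.19. The groups did not overlap for 4 of the 15: KMT2E, SELPLG and TARS1 were higher and MARVELD3 was lower, beside 10.2% higher and 8.48% lower among all genes tested.

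Of the 10 genes that overlap one of the 10 on either strand, 7 had 0 reads and 2 had 1 read. Only TAT-AS1, on the other strand of TAT, had more: 10, 3 and 6 reads in the ERbeta libraries and 6, 11 and 3 in the controls, too few to be tested. Its reads did not follow those of TAT, with means of 0.431 CPM in ERbeta and 0.502 CPM with the empty vector. TAT and TAT-AS1 share 278 of the 3934 windows of 50 bases of the TAT transcript, and in all 8.34% of TAT's windows occur in another gene. The strand setting of the counting is not given in the sources used here, so reads of a gene and of its antisense partner cannot be told apart. Shared windows reached 10.3% in WFIKKN2, with an antisense gene that had 0 reads, and were at most 1.39% in the other 8 genes.

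ARFGAP1, SELPLG, MGAM and SUB1, which are upstream neighbours on the same strand, come first. ARFGAP1, which regulates coat proteins of the Golgi, ends 3393 bp before COL20A1 on the same strand and stood between 91.1 and 121 CPM in ERbeta and between 103 and 133 CPM with the empty vector (log2 fold change -0.11 ± 0.15, edgeR adjusted p = 0.751). SELPLG, a selectin ligand of white blood cells, lies 23957 bp upstream of TMEM119 on the same strand. It had 33, 30 and 34 reads in the ERbeta libraries and 3, 25 and 16 in the controls, and its log2 fold change of 1.19 ± 0.33 had an adjusted p of 0.397 in edgeR's test. MGAM is itself the upstream neighbour of MGAM2, and had the smaller log2 fold change of the pair. For NPR3 the upstream gene on the same strand is SUB1, 84991 bp away, at 256 ± 25.7 and 164 ± 67.1 CPM (log2 fold change 0.64 ± 0.26, adjusted p = 0.397), with overlapping groups.

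Among the other neighbours ZNF19, 571 bp downstream of TAT on the same strand, was at 3.66 ± 0.58 and 3.62 ± 0.645 CPM (log2 fold change 0.02 ± 0.21). GSTO1 starts 2994 bp from CFAP43 in the opposite direction and was at 129 ± 14.0 and 124 ± 14.9 CPM (0.06 ± 0.13). SFR1 on the other side of CFAP43, TOB1 beside WFIKKN2 and ISCU beside TMEM119 had log2 fold changes of 0.17 ± 0.20, 0.13 ± 0.12 and 0.04 ± 0.12. COP1, upstream of TNR on the same strand, had 0.07 ± 0.12. KIAA0040, on the other side of TNR, and MARVELD3, beside TAT, were lower, with -0.22 ± 0.13 and -0.29 ± 0.11. CHRNA4, 8372 bp from COL20A1, had 7, 8 and 7 reads in the ERbeta libraries and 1, 7 and 5 in the controls and was not tested. The non-coding ENSG00000260593, upstream of TAT on the same strand, had 24 reads in all.

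Around LHFPL3-AS1, the pseudogene EIF4BP6 and ORC5, a subunit of the origin recognition complex, each had a log2 fold change of 0.17 (± 0.20 and ± 0.12). KMT2E, a chromatin protein 210072 bp away on the other strand, was at 87.4 ± 10.3 CPM against 57.3 ± 12.8 CPM in the controls (0.60 ± 0.18, adjusted p = 0.397). LHFPL3-AS2, which was singled out after its values were seen, is a further non-coding gene 90521 bp away on the same strand. It had 11, 3 and 8 reads in the ERbeta libraries and 1, 0 and 1 in the controls, with no overlap on the CPM scale. TARS1, a tRNA synthetase 648972 bp from NPR3, was at 500 ± 69.3 and 321 ± 87.5 CPM (0.64 ± 0.20, adjusted p = 0.397). Without EV_Ctrl 2, edgeR's test called 3 of the 15 neighbours, KMT2E (0.79), SUB1 (1.02) and TARS1 (0.90), beside 14.3% of all genes in that fit.

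**Figure D3:**
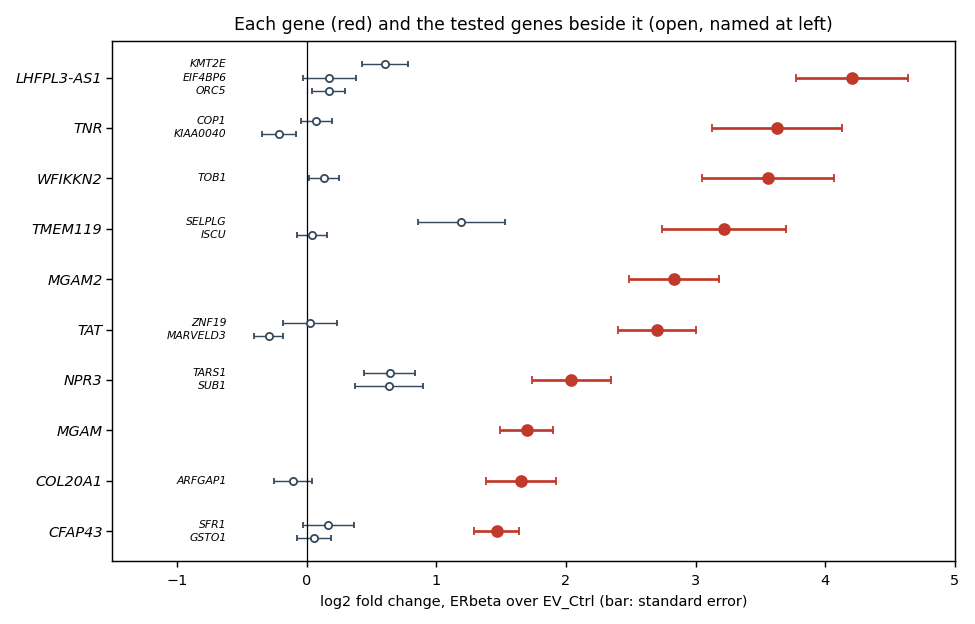
Log2 fold change of ERbeta over EV_Ctrl (horizontal axis, bars are standard errors) of each of the 10 genes in red and of the tested genes beside it as open points. The neighbours lie between -0.29 (MARVELD3) and 1.19 (SELPLG), left of the gene they adjoin in every row that has one; MGAM and MGAM2 have no tested neighbour other than each other.

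Genes related to the 10 by family or pathway were taken from 9 lists with 110 genes. edgeR tested 68 of them and called 0 at an adjusted p of 0.05 (smallest 0.397), as it called 0 of all 16243 genes tested. Of the 68, 6 had an unadjusted p under 0.05, beside 12.4% of all genes tested. The median log2 fold change of the 68 was 0.01, beside -0.01 over all genes tested and 2.77 for the 10 genes, and 38 of the 68 were positive. The groups did not overlap for 7 with ERbeta higher and for 4 with ERbeta lower, shares close to the 10.2% and 8.48% of all genes. No list had a called member in either direction, and neither had the table as a whole. Without EV_Ctrl 2, 8 of 69 tested were called, 11.6%, beside 14.3% of all genes in that fit.

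Of the list for tyrosine catabolism around TAT, 6 of 9 genes were tested, with a median of 0.02. QDPR and PCBD1, which recycle a pterin cofactor, had -0.15 ± 0.13 and 0.10 ± 0.13. Among sugar-splitting enzymes and brush border sugar transporters 4 of 11 were tested, with a median of -0.01, and sucrase-isomaltase (SI), the usual partner of MGAM in the gut, had 0 reads. AMY2B, an amylase, was at 1.02 ± 0.255 and 0.455 ± 0.139 CPM (log2 fold change 1.24 ± 0.36, adjusted p = 0.397), and GAA, the lysosomal glucosidase, at -0.20 ± 0.17.

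For TNR, 7 of 13 tenascins and partners of the perineuronal net were tested, with a median of -0.18; its relative TNC had -0.18 ± 0.11 and the link protein gene HAPLN3 -0.19 ± 0.11. For WFIKKN2, 11 of 12 genes of myostatin and GDF11 signalling gave a median of -0.01. The receptors ACVR1C and ACVR2A had 0.66 ± 0.33 and 0.37 ± 0.20, and the paralog WFIKKN1, named for its kinship, 0.37 ± 0.26. For NPR3, 7 of 11 genes of the natriuretic peptide system gave a median of 0.20. PRKG1, the kinase downstream of the cyclase receptors, had 0.88 ± 0.35 and CORIN, the protease that activates atrial natriuretic peptide, 1.14 ± 0.47 (adjusted p = 0.397 for both). The cyclase receptors NPR1 and NPR2, also named for their kinship, had 0.20 ± 0.22 and 0.20 ± 0.17.

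For COL20A1, 7 of 9 fibril-associated collagens gave a median of -0.06, with -0.34 ± 0.23 for COL9A3 and 0.21 ± 0.21 for COL21A1. For CFAP43, 17 of 29 other cilia and flagella associated genes gave a median of 0.21, with 14 positive. CFAP97 and CFAP69 had the smallest p-values among them, at 0.94 ± 0.33 and 0.70 ± 0.25 (adjusted p = 0.397 for both), and both passed the test without EV_Ctrl 2 (1.48 and 1.12), as did PRKG1 (1.42) and ACVR1C (1.15) of the lists above. Of 10 genes of bone-forming cells, listed for TMEM119, 6 were tested with a median of -0.07, and SMAD5 and SMAD1 had 0.42 ± 0.22 and 0.24 ± 0.14. In the LHFPL family 3 of 6 were tested with a median of -0.06, and LHFPL4 had -0.42 ± 0.14 (adjusted p = 0.397).

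**Figure D4:**
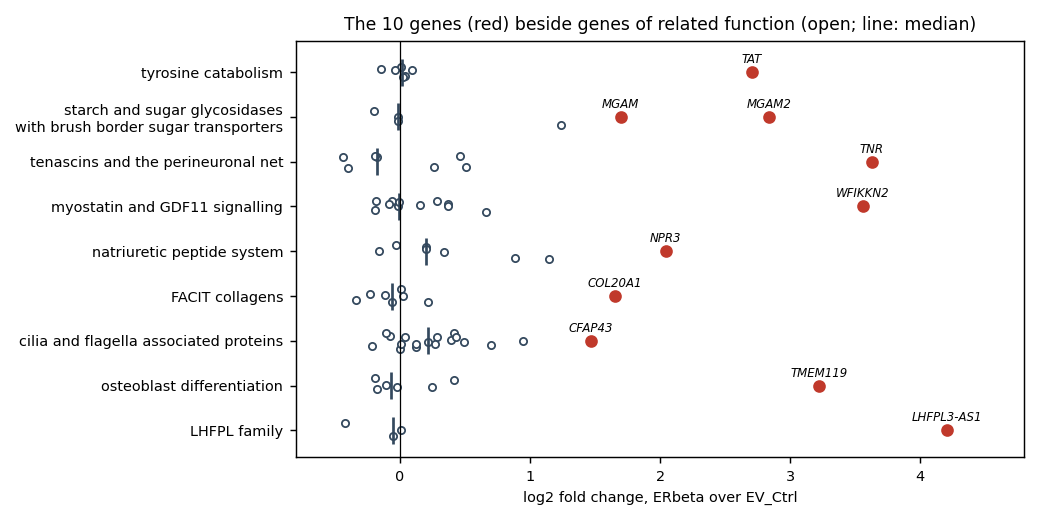
Log2 fold change of ERbeta over EV_Ctrl (horizontal axis) of the 10 genes in red and of the 68 tested genes of the 9 lists of related genes as open points, with the median of each list as a vertical line. The medians lie between -0.18 and 0.21, and each red point lies to the right of all open points of its row.

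Markers of the cell types in which the 10 genes are usually found are given for their whole lists, and their part in the differences was not tested. Of 8 hepatocyte markers APOB, TTR and FGB had 0 reads, and their sum ranged from 0.642 to 1.24 CPM in ERbeta and from 0.264 to 0.693 CPM in the controls. APOA1 (0.536 ± 0.126 and 0.0958 ± 0.0884 CPM) and ALB (0.288 ± 0.187 and 0.0377 ± 0.0653 CPM) did not overlap between groups, and the other 3 markers with reads overlapped. APOA1 and ALB had too few reads to be tested. The shares without overlap in this direction, 10.2% of all genes tested and 8.08% of the weak ones, do not cover such genes. Of 7 enterocyte markers ALPI, SI and CDH17 had 0 reads, and the sums, 0.391 to 0.802 and 0.277 to 0.792 CPM, overlapped. Of 8 markers of microglia and macrophages P2RY12 had 0 reads and PTPRC, C1QA and TREM2 had 1 each, with sums of 0.556 to 1.20 CPM in ERbeta and 0.174 to 0.693 CPM in the controls. The 7 glial markers summed to 47.2 to 61.5 and 50.2 to 61.7 CPM, most of it MBP, and SOX10 had 1 read. The 6 markers of ciliated cells summed to 4.41 to 5.21 and 4.37 to 6.79 CPM, with FOXJ1 at 0.753 ± 0.236 and 0.910 ± 0.364 CPM and 1 read for TEKT1.

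As a background, 376 olfactory receptor genes were listed beforehand as silent in this line. Between 5 and 16 of them had a read in a library, and their sum was 1.69 to 1.93 CPM in ERbeta and 2.38 to 3.22 CPM in the controls. The 10 genes together summed to 27.7 to 33.0 CPM in ERbeta and 6.10 to 8.14 CPM in the controls. In EV_Ctrl 1 only 5 olfactory receptor genes made up 2.77 CPM, where 1 read is 0.139 CPM. A few genes with several reads thus carried the sum, and not all of the family was silent. The sum was lower in each ERbeta library than in each control, as for 8.48% of single genes tested, and the difference was not tested.

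The 5 tested genes whose log2 CPM over the 6 libraries was most like the mean profile of the 10 were FRMD3, SNRNP27, LRP2BP, MYH3 and FUBP3. Pearson's r with that profile was 0.996, 0.995, 0.994, 0.989 and 0.988 over 6 libraries, which share the split in 2 groups and their depths. The profile itself followed the group, with ERbeta 1 highest and EV_Ctrl 1 lowest. MYH3, a myosin heavy chain of embryonic muscle, was at 13.7 ± 1.46 and 7.21 ± 0.864 CPM, a log2 fold change of 0.92 ± 0.15. FRMD3 was at 6.21 ± 0.354 and 3.68 ± 0.228 CPM (0.75 ± 0.15). Since these genes were chosen for a profile that splits the groups, their differences are descriptions, with no test.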

How the data were processed

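Poly(A) RNA was sequenced with a TruSeq Stranded mRNA kit, per the labels' protocols. The deposited table of 64299 genes holds unscaled read counts by the authors, made per the submitters' processing notes with TopHat2 and featureCounts on hg38; for versions, annotation and strand setting, the sources used here give nothing. The authors' deposited comparison holds, per the file headers, a mean signal (DESeq2 mean count), p-values, log2 fold changes, and their errors and Wald statistics as scores; it was copied, not tested. All 6 libraries were used, and 0 columns fell outside them.

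Counts were filtered with filterByExpr (minimum count 10, total 15), normalised by TMM and tested in R 4.3.3 with edgeR 4.0.16 on group alone, with Benjamini-Hochberg adjustment over all 16243 genes tested. The SE is derived from the quasi-likelihood F statistic. Correlations used log2 of CPM plus 0.1. The steps were tested on simulated counts. Alternatives used DESeq2 1.42.0, limma 3.58.1, other scalings and filters, equal depth, a loess offset (span 0.5) for G and C content, the replicate number as a block, and leaving out each library.

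Names, positions and exon lengths are from GENCODE 29; windows of 50 bases compared transcripts between genes. Named are all 10 genes, neighbours with at least 10 reads, up to 2 genes of each list with the smallest p, and the 5 genes most alike; other names were chosen after their values were seen. The 10 genes, the lists and the tests were chosen with earlier results of these data known.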

Additional observations from a re-analysis of the deposited data

How the results depend on the processing

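The number of genes called over the whole table depended on the settings: 0 with edgeR as reported, 51 with no filter on low counts, 71 with DESeq2's test, 1 with limma-voom and 22 with the correction for G and C content; leaving out 1 library gave 0 to 2324, the last without EV_Ctrl 2. The same omissions gave 0 to 3 called neighbours and 0 to 8 called genes of the lists, in both cases the highest without EV_Ctrl 2; the cause was not tested. Deviations of same-numbered libraries from their group means had correlations of 0.268, -0.172 and -0.170. Deviations within a group of 3 libraries are tied to each other, so these values cannot show whether the replicate numbers pair the libraries. With the replicate block 0 genes were called and the median of the 10 genes was 2.71.

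The 10 genes kept their direction in all 152 values under the alternatives run, and in 147 moved by less than the spread between libraries. Their median of 2.77 ran from 2.67 (limma-voom) to 2.99 (equal depth), and from 2.45 to 2.89 on leaving out 1 library. The exceptions were WFIKKN2 (4.55 at equal depth, 4.46 without EV_Ctrl 2) and TMEM119 (3.83 at equal depth, 2.44 without EV_Ctrl 2, 3.75 without EV_Ctrl 3). Asking for 1 CPM in each of the 6 libraries kept only COL20A1 and CFAP43 of the 10, so that no median was formed. With the correction for G and C content CFAP43 had 1.25 and COL20A1 1.85.

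Of 562 values of the other named genes 26 changed sign, to values between -0.25 and 0.14. With library size only, log2 fold changes were -0.066 for ZNF19, -0.021 for COP1, -0.051 for ISCU and -0.035 for GSTO1; at equal depth -0.25 for ZNF19 and -0.0010 for GSTO1. With the correction for G and C content they were -0.060 for ORC5, -0.028 for TOB1, 0.14 for ARFGAP1, -0.15 for SFR1, 0.059 for GAA, -0.014 for ACVR2A, -0.10 for SMAD5, -0.10 for SMAD1 and 0.082 for LHFPL6. Leaving out 1 library gave -0.092 to 0.18 for ZNF19, -0.026 to 0.091 for ISCU, -0.037 to 0.14 for GSTO1, -0.00044 to 0.19 for PCBD1, -0.012 to 0.30 for EIF4BP6, -0.0076 to 0.14 for COP1 and -0.20 to 0.0062 for ARFGAP1. In the last 100 bases before the start TATAAA was found for 1 of the 6 genes with a promoter. For genes with 0 to 2 reads in EV_Ctrl 1 depth limits the control value, since 3 reads there are 0.416 CPM.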

Other observations

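Other weakly expressed genes of distant tissues stood near the 10 in the order of log2 fold changes; they are given as values, chosen after these were seen and with no test. MRC1, the mannose receptor of macrophages, had 16, 17 and 15 reads in the ERbeta libraries and 0, 6 and 2 in the controls, a log2 fold change of 2.60 ± 0.45 (SE). SLC6A4, the serotonin transporter, had 24, 22 and 20 reads against 1, 5 and 7 (2.32 ± 0.43). ALLC, an allantoicase homologue, had 27, 20 and 17 against 4, 6 and 1 (2.52 ± 0.43), and GCM1, a factor of placental development, 27, 19 and 17 against 0, 14 and 6 (1.72 ± 0.47).

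Some genes known from liver other than TAT were among them, also picked by their values. Of the 8 hepatocyte markers above, APOB, TTR and FGB had 0 reads. SERPINA1, HP and CYP3A4 overlapped between groups, and ALB and APOA1 did not. Transferrin (TF) was at 0.966 ± 0.238 CPM in ERbeta and 0.288 ± 0.130 CPM with the empty vector (SD, n = 3 each), and FGF21, a hormone secreted by liver, at 1.03 ± 0.131 against 0.351 ± 0.0798 CPM. In the 6 picked genes MRC1, SLC6A4, ALLC, GCM1, TF and FGF21 the groups did not overlap, as for 10.2% of all genes tested. Since they were picked from the largest log2 fold changes, where most genes do not overlap, nothing is read from this.

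MSTN, the myostatin that WFIKKN2 binds, had 3, 4 and 6 reads in the ERbeta libraries and 0, 3 and 0 in the controls, too few to be tested. SLC2A5, the fructose transporter of the gut, had 14, 13 and 5 against 2, 4 and 1, and LCT, lactase, 7, 5 and 7 against 1, 7 and 2. None of these 3 overlapped between the groups on the CPM scale. The share in this direction was 8.08% of the weak genes tested, which does not cover untested genes such as these. Their names were picked after their values were seen. Of the other untested genes in the list of SLC2A5 and LCT, SI and AMY2A had 0 reads, and TREH, SLC5A1 and SLC2A2 overlapped.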
